A study of Drosophila melanogaster with 2 samples.

Results

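The protein-coding genes for translation initiation factors (symbols starting with eIF) and elongation factors (symbols starting with eEF) were examined for binding of the transcription factor gooseberry (gsb) in Drosophila melanogaster embryos. The genes were chosen by the start of their symbol in the Ensembl annotation of dm6, which gave 52 of the 13945 protein-coding genes on the 6 main chromosome arms. The gene set had been put forward with peak calls from these same data in view. Shares of its genes with a peak are therefore given as a description beside the share of all genes, and nothing is read from the difference.

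Eukaryotic translation begins when the eIF4 factors recruit the capped messenger RNA and the small ribosomal subunit, held by eIF3 and carrying the initiator tRNA on eIF2, scans for a start codon. The eEF factors then bring in each aminoacyl-tRNA and move the ribosome along the message. All growing cells need these proteins, and flies have extra copies of several factors, among them the cap-binding protein eIF4E. The gsb protein belongs to the Pax family, whose members bind DNA through a paired domain and a homeodomain, and it is known for patterning embryonic segments and the nerve cord.

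Chromatin immunoprecipitation and sequencing had been carried out on whole embryos aged 0 to 18 h that expressed gsb fused to the green fluorescent protein eGFP, with an antibody against GFP, per the description. The antibody field of the labels names gsb, so whether untagged gsb could also be precipitated cannot be told from them. The labels describe the line as an insertion targeting gsb and do not say what drove the fusion or whether untagged gsb was retained. There was 1 group of 2 biological replicates and no control group was used here. The authors deposited peak lists. A region in them has a summit and a signal, the peak caller's value, on a scale that the labels do not state. The joint list of both replicates held 2877 peaks on the main arms, and the list of replicate 1 held 1864 and that of replicate 2 held 1701. These were the regions that had passed a threshold on the irreproducible discovery rate (IDR), which is low where a region ranks alike in repeated sets of reads. Longer ranked lists gave all candidate regions, 139318 in the joint one. In whole embryos, binding in fewer cells and weaker binding per cell cannot be told apart.

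The stretches of DNA under 6 of the peaks are shown first, because 5 of them hold the same 8 letters; they were picked after their letters had been seen. Each is the 201 bp centred on the joint summit, read 5′ to 3′ on the strand of the named gene from the RefSeq copy of Release 6 (dm6). Capitals mark TATCGATA, the element bound by the DNA replication-related element factor (DREF), which sits in promoters of many broadly expressed fly genes. The element reads the same on both strands. The windows are chr3R:29220038-29220238 (plus strand) for eEF1gamma, chr3L:3222917-3223117 (plus strand) for eIF1, chr3R:4433851-4434051 (minus strand) for eIF3a, chr3L:21824817-21825017 (plus strand) for eIF2A and chr3R:4714094-4714294 (minus strand) for eIF3f1. The window of eIF2Bbeta, chrX:2703790-2703990 (plus strand), had the highest signal of the 12 peaks and holds no such element. Among the windows not shown are those of eIF5B (joint signal 163.5) and eEF2 (134.9). Both had a higher signal than eIF1, eIF3a, eIF2A and eIF3f1, and neither holds the element.
eEF1gamma: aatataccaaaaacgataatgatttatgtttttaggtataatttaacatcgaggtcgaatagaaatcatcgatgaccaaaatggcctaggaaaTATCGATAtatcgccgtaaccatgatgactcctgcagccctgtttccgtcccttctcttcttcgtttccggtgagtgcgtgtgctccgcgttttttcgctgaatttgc
eIF1: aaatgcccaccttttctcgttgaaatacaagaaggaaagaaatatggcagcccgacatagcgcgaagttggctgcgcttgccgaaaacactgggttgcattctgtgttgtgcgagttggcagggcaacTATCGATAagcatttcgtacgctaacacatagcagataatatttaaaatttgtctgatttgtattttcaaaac
eIF3a: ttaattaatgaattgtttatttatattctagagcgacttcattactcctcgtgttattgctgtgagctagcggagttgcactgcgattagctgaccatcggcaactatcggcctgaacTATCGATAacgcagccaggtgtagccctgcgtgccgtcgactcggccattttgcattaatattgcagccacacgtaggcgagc
eIF2A: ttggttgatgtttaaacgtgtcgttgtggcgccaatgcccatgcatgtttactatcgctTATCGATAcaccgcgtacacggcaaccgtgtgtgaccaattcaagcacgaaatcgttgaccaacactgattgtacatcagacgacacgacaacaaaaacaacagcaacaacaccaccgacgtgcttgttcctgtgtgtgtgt
eIF3f1: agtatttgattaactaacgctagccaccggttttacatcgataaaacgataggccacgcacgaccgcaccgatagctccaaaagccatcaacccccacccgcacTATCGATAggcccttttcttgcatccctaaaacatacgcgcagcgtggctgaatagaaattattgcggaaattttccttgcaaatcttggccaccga
eIF2Bbeta: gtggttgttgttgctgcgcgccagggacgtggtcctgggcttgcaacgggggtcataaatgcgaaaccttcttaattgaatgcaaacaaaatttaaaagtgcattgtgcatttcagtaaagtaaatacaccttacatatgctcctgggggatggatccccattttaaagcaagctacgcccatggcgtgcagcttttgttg

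An exact TATCGATA was present in 5 of the 12 windows (41.7%), against 4.36% of the 1607 peaks at promoters of any protein-coding gene and 7.84% of windows of this length centred on the outermost start of each of the 13945 genes. These sets are not matched for distance to a gene start. The median distance of the summit was 52 bp in the 12 genes, against 185 bp in all genes with a promoter peak. The centre of the element lay 3.5 bp from the summit in eEF1gamma and 7.5 bp in eIF3f1. It was 21.5 bp away in eIF3a, 31.5 bp in eIF1 and 37.5 bp in eIF2A. In eIF1 the element was 292.5 bp from the eIF1 start and 88.5 bp from that of RpL28, the ribosomal protein gene on the other side. In eIF3a it was 34.5 bp from the eIF3a start and 35.5 bp from that of its neighbour CG1074. The letters are a description of these windows; binding by DREF was not measured.

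The element was also counted around every transcription start site (TSS), whether or not a peak lay there. Of the 52 genes, 13 (25%) held it within 100 bp of a TSS, against 8.49% of all protein-coding genes. Among the 12 genes with a peak it was found in 6 (50%), which include eIF2Bbeta and eIF6 with the element at the gene's own start and outside the summit window. All genes with a promoter peak held it in 11.7%. It was found in 7 of the 40 factor genes without a peak (17.5%), against 7.98% of all genes without one; the 7 were eEF1delta, eIF2alpha, eIF2gamma, eIF3l, eIF4A, eIF4B and eIF4E6. Put the other way, 6 of the 13 factor genes with the element had a peak (46.2%), against 225 of the 1184 protein-coding genes with it (19.0%). Peaks were thus found without the element, and the element without a peak, among these genes.

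The remaining motifs were sought on both strands in the same 201 bp windows. The homeodomain core TAATTA was found in the eIF3a window alone (8.33%), against 13.5% of all promoter peaks and 9.95% of TSS windows. A paired domain core, GTCACGC, was found in 0 of the 12 windows, against 1.12% and 1.07% of those sets. The letters GAGAG of the GAGA factor were in the windows of eEF1alpha1 and eIF3c (16.7%, against 25.1% and 22.5%), and ACAGTG was in that of eEF5 (8.33%, against 19.4% and 9.79%). The general E-box CANNTG was found in 7 windows (58.3%, against 62.0% and 63.7%), and its palindromic form CACGTG, which CANNTG also counts, in 0 (against 3.05% and 2.88%). Motif 1, GGTCACACT, which the fly protein M1BP binds, was found in 0, against 1.62% and 5.29%. With 12 windows a motif of low frequency can easily be missed. The median GC content was 45.3% over the 12 windows (range 38.3 to 49.3%), against 37.8% over all promoter peaks and 41.3% over all TSS windows.

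**Figure D1:**
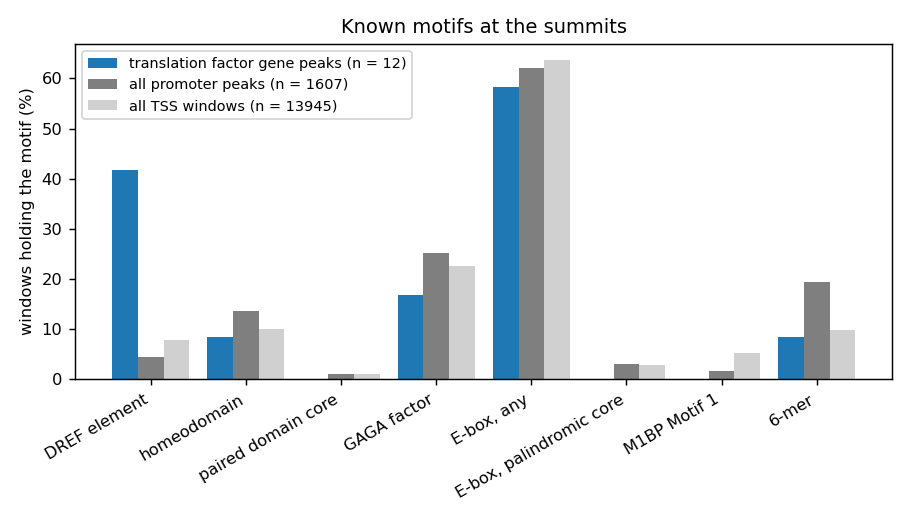
Bars give the percentage of 201 bp windows that hold each motif, in the 12 peaks of translation factor genes, in all 1607 promoter peaks and in windows at the TSSs of all 13945 protein-coding genes. The DREF element stands at 41.7% in the 12 peaks, against 4.36% and 7.84% in the larger sets, and 1 window is 8.33% of the 12. The sets are not matched for distance to a TSS.

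A second promoter signature was looked for after the data had been seen. Many genes of the translation machinery start transcription at a cytosine in a pyrimidine stretch, the TCT initiator, for which CTTTC or CTTTT with the C within 5 bp of a TSS was taken as a stand-in. It was present in 3 of the 12 genes with a peak (25%), eEF2, eEF5 and eIF3f1, and in 3 of the 40 without one (7.50%), eIF3i, eIF3m and eIF4A. All protein-coding genes with a promoter peak held it in 8.39% and all protein-coding genes in 5.13%. Of the 12, only eIF3f1 had both this stretch and a DREF element in its summit window.

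A joint peak had its summit within 1 kb of a TSS in 12 of the 52 genes (23.1%, exact binomial 95% interval 12.5 to 36.8%), against 1931 of all protein-coding genes (13.8%). The elongation factors had a peak in 4 of 8 genes (50%, 15.7 to 84.3%). The list of replicate 1 alone and that of replicate 2 alone each held 2 of the 8 (25%), against 9.89% and 9.46% of all genes. The factors of the initiator tRNA and start site had it in 3 of 9 (33.3%, 7.49 to 70.1%), and the subunits of eIF2B, which reloads eIF2 with GTP, in 1 of 5 (20%, 0.505 to 71.6%). The scaffold complex eIF3 had it in 3 of 16 (18.8%, 4.05 to 45.6%). The eIF4 factors, which bind the cap and unwind the message, had none in 13, which allows up to 24.7%. One of them, eIF4EHP, had a strong candidate region that the joint list did not hold, as described below. With such regions counted, the eIF4 factors had 1 of 13 (7.69%), against 14.1% of all genes. The single eIF6 gene had a peak. These intervals cover counting error only. Members of a group are different genes and not replicates of one another.

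**Figure D2:**
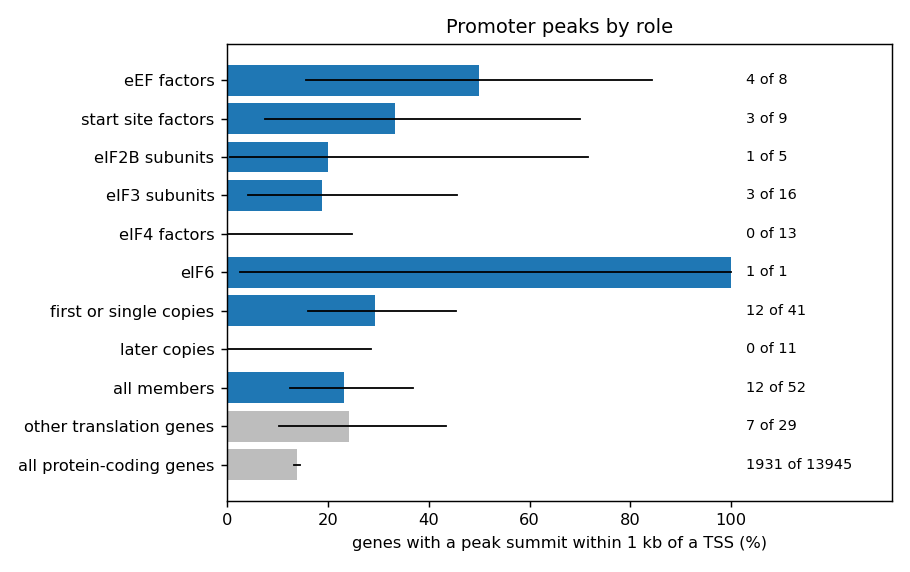
Bars give the percentage of genes with a joint peak summit within 1 kb of a TSS, lines the exact binomial 95% interval, and the text the number of genes. The eEF factors stand at 4 of 8 (2 in each replicate's own list) and the eIF4 factors at 0 of 13, with all 12 peaks among first or single copies. The strong candidate region at eIF4EHP, absent from the joint list, is not counted.

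All 12 peaks were at first or single copies, 12 of 41 genes (29.3%, 16.1 to 45.5%), and none was at the 11 later copies, which allows up to 28.5%, beside 13.8% of all protein-coding genes. With so few later copies, a share equal to that of all genes lies within their interval. The later copies are eEF1alpha2, eIF3d2, eIF3f2, eIF3g2, eIF4G2, eIF4H2 and the eIF4E genes numbered 3 to 7. The intervals of the first copies and the later copies overlap.

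Among the elongation factors, eEF1gamma had the highest signal. This gene encodes a subunit of the complex that reloads eEF1A with GTP. Its peak had a joint signal of 402.6, with 230.9 in replicate 1 and 188.4 in replicate 2, and the summit lay 34 bp upstream of the TSS. The summit ranked 163 in the joint candidate list, and the nearest TSS of another gene was 3290 bp away. The peak of eEF1alpha1 (chr2R:11891912-11892275), 1 of the genes for the protein that carries aminoacyl-tRNA to the ribosome, had 140.2 in the joint list, 76.1 in replicate 1 and 70.1 in replicate 2. That summit was 28 bp upstream of the nearest of its 4 TSSs. The genes of the other subunits, eEF1beta and eEF1delta, had no peak, nor had eEFSec, which serves selenocysteine.

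The translocase gene eEF2 and eEF5, the factor once called eIF5A that helps the ribosome past difficult peptide bonds, had weaker support from single libraries. The eEF2 peak (chr2L:21681836-21682199) had a joint signal of 134.9 and 53.9 in replicate 2, and replicate 1 had no candidate region at that summit. It was 1 of 2 of the 12 peaks whose summit lay downstream of the TSS, by 98 bp, in the first part of the gene and within an intron. The eEF5 peak (chr2R:24057598-24057961) had 83.7 in the joint list, 43.0 in replicate 1 and 36.9 in replicate 2, 18 bp upstream of its TSS. Neither gene had a promoter peak in either replicate's own thresholded list. Whether replicate 1 had reads at the eEF2 summit cannot be told from peak lists.

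Of the start site factors, eIF5B, eIF1 and eIF2A had a peak. The gene eIF5B encodes the GTPase that joins the large subunit, and its peak (chr3L:3460499-3460862) had 163.5 in the joint list, 94.6 in replicate 1 and 73.8 in replicate 2, 78 bp upstream of a TSS. The gene had further peaks inside it, in introns 23202 and 27744 bp from a TSS, with joint signals of 99.7 and 252.5, so the strongest peak within its span was not the one at its promoter. Whether a TSS of another gene lay nearer to the intron peaks was not examined. The peak near eIF1, a factor that keeps scanning accurate, had 124.8 in the joint list, 60.8 in replicate 1 and 71.6 in replicate 2. Its summit lay 324 bp upstream of the eIF1 start and 57 bp from that of RpL28, so the nearer gene is not the initiation factor. The peak of eIF2A, which can bring in initiator tRNA without eIF2, had 99.5 in the joint list, 50.2 in replicate 1 and 55.6 in replicate 2, with the summit in the 5′ UTR 48 bp upstream of the downstream TSS.

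The strongest of the 12 peaks lay near eIF2Bbeta, but another gene was nearer. The peak chrX:2703716-2704054 had a joint signal of 2108, with 1109.7 in replicate 1 and 1014.7 in replicate 2, and ranked 2 in each of the 3 candidate lists. Its summit was 681 bp upstream of eIF2Bbeta and 38 bp from the TSS of Ugalt, a divergent gene for a transporter of UDP-galactose. The other eIF2B subunits, alpha, gamma, delta and epsilon, had no promoter peak. The next strongest was eIF6, whose protein keeps free large subunits from joining too early. Its peak (chr2R:23850257-23850551) had 1114.3 in the joint list, 578.7 in replicate 1 and 542.2 in replicate 2, and its summit lay 113 bp upstream of the eIF6 TSS with the next gene start 659 bp away. The joint rank of the eIF6 peak was 13.

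Of the eIF3 subunits, eIF3a, eIF3c and eIF3f1 had a peak, all below the list's median signal of 112.4. The eIF3a peak had 106.0 in the joint list, 56.1 in replicate 1 and 53.2 in replicate 2. It lay between the divergent starts of eIF3a and CG1074, which are 70 bp apart, 56 bp from eIF3a and 14 bp from CG1074. The eIF3c peak (chr2R:17665530-17665893) had 93.4, with 60.1 in replicate 1 and 37.9 in replicate 2, 34 bp downstream of the TSS in the 5′ UTR. The eIF3f1 peak had 76.6, the lowest of the 12, with 40.7 in replicate 2 and no candidate region in replicate 1, 12 bp upstream of the TSS. Scores, which rise as the IDR falls and were capped at 1000, were 913 for eIF3c and eIF3f1 and 952 for eEF5, and 1000 for the other 9 peaks. The lowest score in the joint list was 830.

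**Figure D3:**
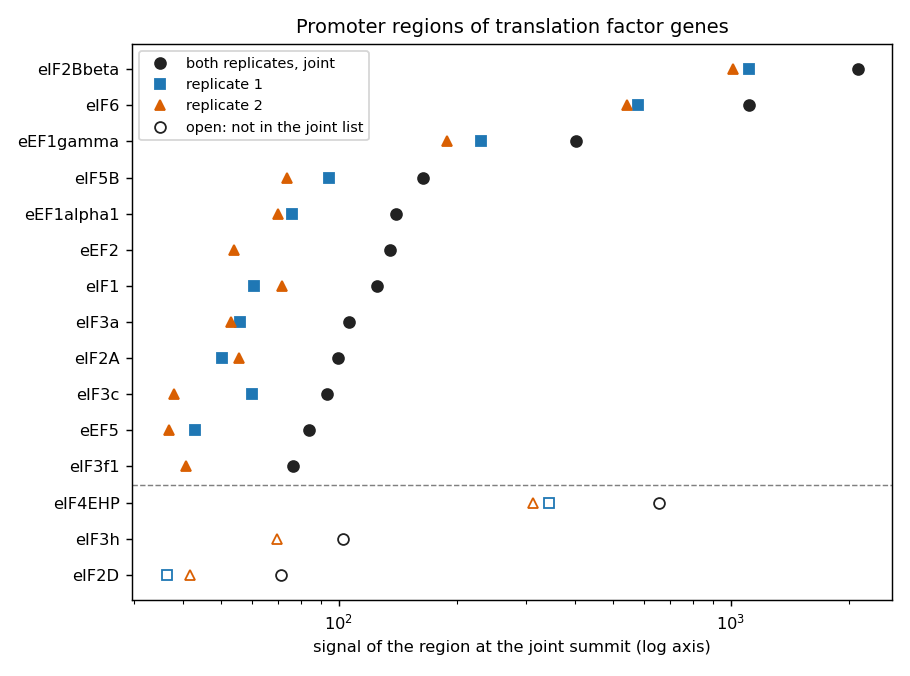
Points give the signal (log axis) in the joint list and in each replicate at the joint summit, for the 12 genes with a joint peak above the dashed line and 3 further genes below it. Replicate 1 has no point for eEF2, eIF3f1 and eIF3h. The signals of eIF2Bbeta (2108) and eIF6 (1114.3) stand apart from the 9 peaks at 163.5 or below, except that eEF1gamma (402.6) lies between, and eIF4EHP reaches 653.7 without a place in the list.

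The signals of the replicates were set side by side. At each joint peak of these genes the joint signal was above the replicate signals, so joint and replicate values should not be compared. Over the 10 peaks with a candidate region at the summit in each replicate, Spearman's rho between the signals was 0.939, and over the 31 genes with such a pair at the strongest region it was 0.729. Neither measures reproducibility. The listed peaks had been selected by an IDR threshold, which favours regions of like rank, and eEF2 and eIF3f1, with no candidate region in replicate 1, are left out of the 10. A missing region does not show that replicate 1 had no reads at those summits. Of the 52 genes, 8 had a promoter peak in the thresholded lists of both replicates, 1 in replicate 1 alone (eIF3c) and 1 in replicate 2 alone (eIF2A). The 8 include eIF3h, which had no joint promoter peak. The shares of all genes in both lists, in 1 alone, or in the joint list and neither replicate list were not counted. Nothing is therefore read from these overlaps. The totals were 9 genes in replicate 1 (against 9.89% of all genes) and 9 in replicate 2 (against 9.46%). The peaks of eEF2, eEF5 and eIF3f1 were in the joint list and in neither replicate list.

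The 12 joint peaks had a median signal of 129.8 (range 76.6 to 2108), against 133.9 for all 1931 genes with a promoter peak. Their summits were closer to an annotated TSS of the gene. The median distance from the summit to the gene's nearest own TSS was 52 bp, against 185 bp for all genes with a peak. Of the 12, 10 (83.3%) lay within 200 bp, against 52.3%. The summit was upstream of that TSS in 10 and downstream in eEF2 and eIF3c. Of those 10, the summits of eEF1alpha1 and eIF5B (introns) and eIF2A (5′ UTR) lay inside the gene, upstream of an internal TSS. The factor gene's own TSS was the nearest of any protein-coding gene in 9 of the 12 (75%), against 74.4% of all genes with a peak. The exceptions were eIF2Bbeta, eIF1 and eIF3a.

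**Figure D4:**
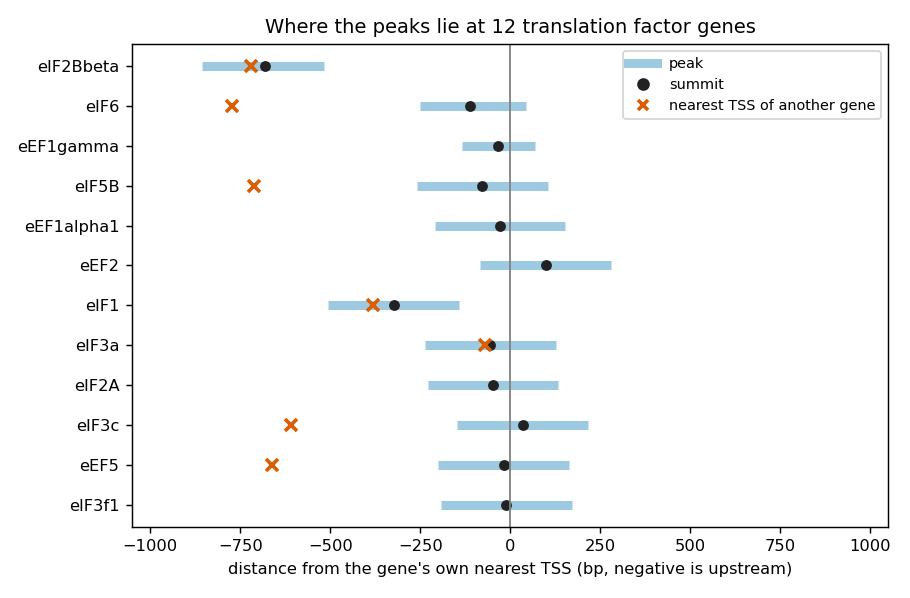
Bars span each of the 12 peaks, dots mark the summit and crosses the nearest TSS of another gene where it lies in range, as distance in bp from the factor gene's own TSS (negative is upstream). The summits sit within 200 bp of the gene's nearest own TSS in all genes but eIF2Bbeta (681 bp) and eIF1 (324 bp).

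Of the 40 genes without a joint promoter peak, 34 had a joint candidate region within 1 kb, with a median signal of 42.75 (range 11.2 to 653.7), against 42.51 for all genes without a peak. Over the 46 of 52 genes with any joint candidate (88.5%, against 89.8% of all genes), the median was 45.97, against 46.01, and the 75th percentile 90.97, against 63.19. The medians were nearly equal. The 75th percentile of the factor genes lay among the signals of their called peaks, which were 76.6 or more. It largely follows from the share of genes with a peak, and nothing further is read from it. The genes with no joint candidate were eEF1delta, eIF2alpha (the subunit that stress kinases phosphorylate), eIF4B and eIF4H1 (both helicase cofactors), eIF4G1 (the scaffold of the cap complex) and eIF5 (which triggers GTP hydrolysis by eIF2). The candidate list of replicate 2 alone had a region within 1 kb at 48 of the 52 genes, so some of these genes had one there. Among these genes eIF4B stood apart, as it starts at 27842669 of the 28110227 bp of arm 3L. Its nearest joint peak was 4979358 bp away, against 8250 to 98416 bp for the others. Whether regions could be called there was not tested. The cap-binding protein gene eIF4E1 had a best joint candidate of 11.2, and its best candidate in replicate 2 had 27.5.

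**Figure D5:**
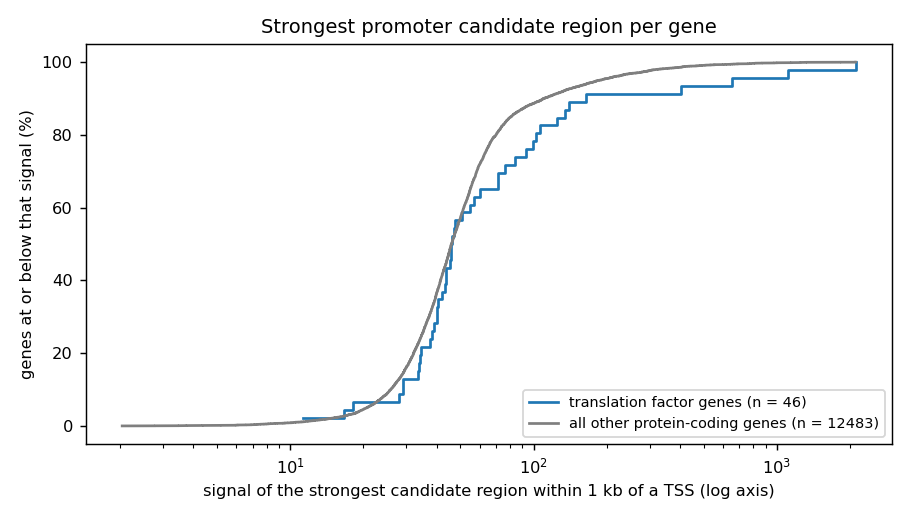
Lines give the percentage of genes at or below each signal (log axis) of the strongest joint candidate region within 1 kb of a TSS, for the 46 factor genes with one and for all other protein-coding genes with one. The lines run together up to the median near 46. Above it the factor genes have a 75th percentile of 90.97, which lies among the signals of their called peaks.

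The strongest of these candidates was at eIF4EHP, a cap-binding protein that represses translation of particular messages in the embryo. The region chr3R:24109031-24109370 had a joint signal of 653.7, with 343.7 in replicate 1 and 313.1 in replicate 2, and ranked 62 of the joint candidates, 223 bp upstream of the TSS and 153 bp from that of CG18428. It had a score of 1000 and a global IDR of 0.00001, yet none of the 4 thresholded lists held it. It was 1 of 81 of the 2958 candidates with a score of at least 830 on the main arms that were absent from the joint list; 46 of these were on 3R and 27 on 2L. The labels and files give no reason for their absence. An intron of eIF4EHP held a listed peak 9766 bp from the TSS, with 169.9 in the joint list, 91.6 in replicate 1 and 79.5 in replicate 2. Counting candidates by score in place of the list gave 13 genes, against 14.1% of all genes.

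The next 4 candidates were at eIF3h, eIF4A, eIF2D and eIF4E6. The eIF3h region had 102.4 jointly, and the gene had promoter peaks in both replicate lists, with 52.5 in replicate 1 and 69.7 in replicate 2, whose summits were 305 bp apart. Its joint candidate had a score of 102. The conservative joint list held eIF3h and eIF2D, with 102.4 and 71.3, and lacked eEF2 and eIF3f1, so that its count was also 12, against 13.2% of all genes. The helicase gene eIF4A had 71.5, with 49.1 in replicate 1 and 14.6 in replicate 2. The later copy eIF4E6 had 60.0, with 26.4 in replicate 1 and 30.6 in replicate 2, and a score of 436, the highest below the threshold with eEF1beta at 435. Any of the 4 thresholded lists put a promoter peak at 14 of the 52 genes (26.9%, against 15.6% of all genes).

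A few genes were counted or not by the width of the window. Just outside 1 kb lay the peaks of eIF3d1 (1253 bp, joint signal 226.9), eIF2beta (1386 bp, 94.7) and eIF3g1 (1411 bp, 117.1), and the farthest inside was eIF2Bbeta (681 bp). A 2 kb window therefore gave 15 genes, against 18.1% of all genes, and a 500 bp window gave 11, against 11.1%. Any overlap with the window gave 12, against 14.6%, and the outermost TSS alone gave 12, against 12.2%. Giving each peak to the gene with the nearest TSS left 9, against 10.3%. A global IDR of at most 0.001 left 5, eIF2Bbeta, eIF6, eEF1gamma, eIF5B and eEF1alpha1, against 7.21%. The peaks at or above the median signal of the list gave 7, which adds eEF2 and eIF1, against 8.63%.

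Other genes of the translation machinery were taken from a fixed list of 33 symbols, 29 of which the annotation held. A joint promoter peak was present in 7 of them (24.1%, 10.3 to 43.5%), against 13.8% of all protein-coding genes. The count was 4 (13.8%, against 12.2%) with the outermost TSS alone and 3 (10.3%, against 11.1%) with a 500 bp window, shares close to those of all genes. The strongest were at pAbp, the poly(A)-binding protein, with 164.0, and at Thor, the inhibitor that binds eIF4E, with 157.5. Thor had 94.5 in replicate 1 and 68.7 in replicate 2, and its summit was 3 bp upstream of the TSS. The rest were Rack1, a ribosomal scaffold protein (153.4), eRF3, a release factor (119.9), the helicase gene bel (101.0), Paip2, a repressor of the poly(A)-binding protein (86.7), and PPP1R15, which directs dephosphorylation of eIF2alpha (85.4). The kinase gene Lk6, which acts on eIF4E, resembled eIF4EHP. A region 968 bp upstream of its TSS had a joint signal of 1104.2, with 539.5 in replicate 1 and 549.2 in replicate 2,, and no thresholded list held it.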

How the data were processed

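The authors deposited peak lists on dm6, per the labels, for 2 biological replicates of 1 technical replicate each, with chromatin sonicated to 200 to 800 bp. Column signal is the peak caller's value in the deposited lists, on a scale the labels do not state. The score, capped at 1000 in the deposited lists, rises as the IDR falls, and the global IDR was taken from the deposited −log10 score. The aligner was not given in the sources used here, nor was the peak caller. The replicate lists were called per library and the joint lists on both. Read depth is unknown, so no value was weighted by it. The deposited inventories name, as a further source of the lists, a file that also fed tracks of fold change over control.

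Summits within 1 kb of any TSS of the Ensembl 115 annotation were assigned to genes with Python 3.11.15, pandas 2.3.3 and numpy 2.4.6. Shares have exact (Clopper-Pearson) 95% intervals from scipy 1.17.1. Motifs were matched exactly within 100 bp of the summit. Counting was tested on simulated data. The genes, lists and motifs were chosen with earlier results of these data known, so no test was made. Named are all genes with a joint peak, the 5 strongest without one, those with no joint candidate region and the other translation genes with a peak. Alternatives varied the list, threshold, window, TSS and motif window. With 1 group, no comparison between groups was possible.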

Additional observations from a re-analysis of the deposited data

How the results depend on the processing

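Of 117 alternative values, 91 stayed within 1.5 times the main value and 26 moved further. Some of the 91 could not move, so they do not measure stability. The eIF4 factors and later copies were at 0, which settings that only drop peaks cannot change. Nearest-TSS assignment and the score rule were added after seeing the data. For these the tally holds only the count over all factor genes, and the score rule gave 1 eIF4 factor. Without replicate 1 or without replicate 2 the number of factor genes with a promoter peak was 9 to 9, of elongation factors 2 to 2 and of other translation genes 5 to 5. The other translation genes thus stood at 17.2% each time, against 9.46% of all genes without replicate 1 and 9.89% without replicate 2. A global IDR of at most 0.001 left 5 factor genes, all first copies (5), with 2 elongation factors, 1 start site factor, 0 eIF3 subunits and 3 other translation genes (10.3%). The share of all genes was 7.21% there. The peaks at or above the median signal left 7 factor genes, all first copies (7), with 0 eIF3 subunits and 4 other translation genes (13.8%), against 8.63% of all genes. A 500 bp window left 0 eIF2B subunits and 3 other translation genes, a 2 kb window gave 5 eIF3 subunits, and the outermost TSS gave 4 other translation genes. The shares of all genes were 11.1%, 18.1% and 12.2% in turn. These settings take fewer or more peaks by construction. The median joint signal, 129.8, became 402.6 at the stricter IDR. The median was 71.6 to 76.1 without replicate 1 or without replicate 2, where the values are those of the other replicate's own list. Motif windows of 50 and 150 bp either side gave 0 and 2 peaks with TAATTA and 0 and 4 with GAGAG; 150 bp gave 1 with CACGTG, 1 with Motif 1 and 2 with ACAGTG. No paired analysis was possible because there was 1 group. Unknown read depth limits every statement on absent peaks.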
